A study of Mus musculus with 6 samples.

Results

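The ETS family genes of mouse bone marrow described here were 10 listed genes, *Spi1*, *Spib*, *Fli1*, *Erg*, *Ets1*, *Ets2*, *Elf1*, *Elf4*, *Etv5* and *Gabpa*, out of 39179 genes in the count files. They were listed by name, as ETS factors of blood cells, when earlier results of these data were already known. All 10 symbols were found among the Ensembl identifiers of the files through GENCODE M21, and all 10 had enough reads to be tested.

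ETS factors share a DNA-binding domain, the ETS domain, which recognizes a short DNA core with the bases GGAA. In blood formation they divide the work by lineage. PU.1, the product of *Spi1*, is required for macrophages, granulocytes and B cells, its paralog Spi-B acts in B cells and plasmacytoid dendritic cells, Ets-1 acts in lymphocytes, and Fli-1 and Erg act in stem cells and in megakaryocytes, the cells that make platelets. Many of them bind DNA next to a partner such as a GATA, RUNX, C/EBP, IRF or AP-1 factor, and PU.1 and GATA1 are known to oppose each other in the choice between myeloid and erythroid cells.

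RNA came from whole bone marrow of 6 littermate mice. The 3 *MxCDX2* mice (genotype *RsCDX2::Mx1Cre*) carried a *Rosa26* knockin in which human *CDX2* follows a stop sequence flanked by loxP sites, and a Cre transgene under the *Mx1* promoter, which interferon switches on in blood cells and also in other tissues. Control 1 was an *RsCDX2* animal, control 2 an *Mx1Cre* animal and control 3 wild type, so each control genotype was seen in a single animal. All mice were 3 months old, all were given poly(I:C), a double-stranded RNA analog that induces interferon, in 3 injections of 10 µg per g of body weight, and all were analysed 6 weeks later.

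Between 38646101 and 49899650 reads per mouse were counted on genes. The inserted *CDX2* sequence is human, and whether the reads counted on mouse *Cdx2* come from it was not tested. These reads checked the labels, with 4, 0 and 0 reads in the control mice and 152, 155 and 183 in the *MxCDX2* mice. Markers of erythroid cells, neutrophils, monocytes and B cells were above 0 in the marrow of both groups. The wild-type mouse stood apart from the other controls: its summed normalized counts over 10 megakaryocyte genes were 317609, against 38242 and 28084 in controls 1 and 2, and over 4 promyelocyte genes 31342, against 168702 and 135634. Calls and medians of gene lists that moved by more than 1.5 times without this mouse are given both ways. Values below are normalized counts, which are reads scaled to a common library size by edgeR's TMM method, and fold changes are on the log2 scale, *MxCDX2* minus control. Adjusted p-values are from edgeR's quasi-likelihood test, corrected by Benjamini and Hochberg's method over 15980 tested genes. A gene is called lower or higher when its log2 fold change is beyond 1 in size and its adjusted p is below 0.05, and a second, wider rule uses the adjusted p alone.

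*Spib*, *Ets1* and *Etv5* were lower in *MxCDX2* marrow, *Spi1*, *Erg*, *Elf1* and *Gabpa* had log2 fold changes between 0.03 and 0.18 that did not pass, and *Elf4*, *Fli1* and *Ets2* lay between these, with the groups apart in the first pair but an adjusted p above the threshold in all of them. Thus 3 of 10 genes were called lower and 0 higher, where 13.6% of all tested genes passed the thresholds in either direction and 9.03% were called lower. All 3 also stand in the study's own list of differentially expressed transcription regulators from these mice, so this count is not independent of that list. By adjusted p alone the count was also 3 lower and 0 higher, beside 21.7% of all genes in either direction and 11.8% lower. DESeq2 and limma also called 3 lower and 0 higher. At an unadjusted p under 0.05 (edgeR), 5 were lower, *Fli1* and *Ets2* being added, and 1 was higher, *Elf4*. The median log2 fold change of the 10 genes was -0.15, and that of all tested genes was 0.0021. In 5 of the 10 genes the 3 *MxCDX2* mice did not overlap the 3 control mice, which was so in 42.1% of all tested genes. These are whole-marrow libraries, so fewer cells of a type and less RNA per cell cannot be told apart in any of these values.

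**Figure D1:**
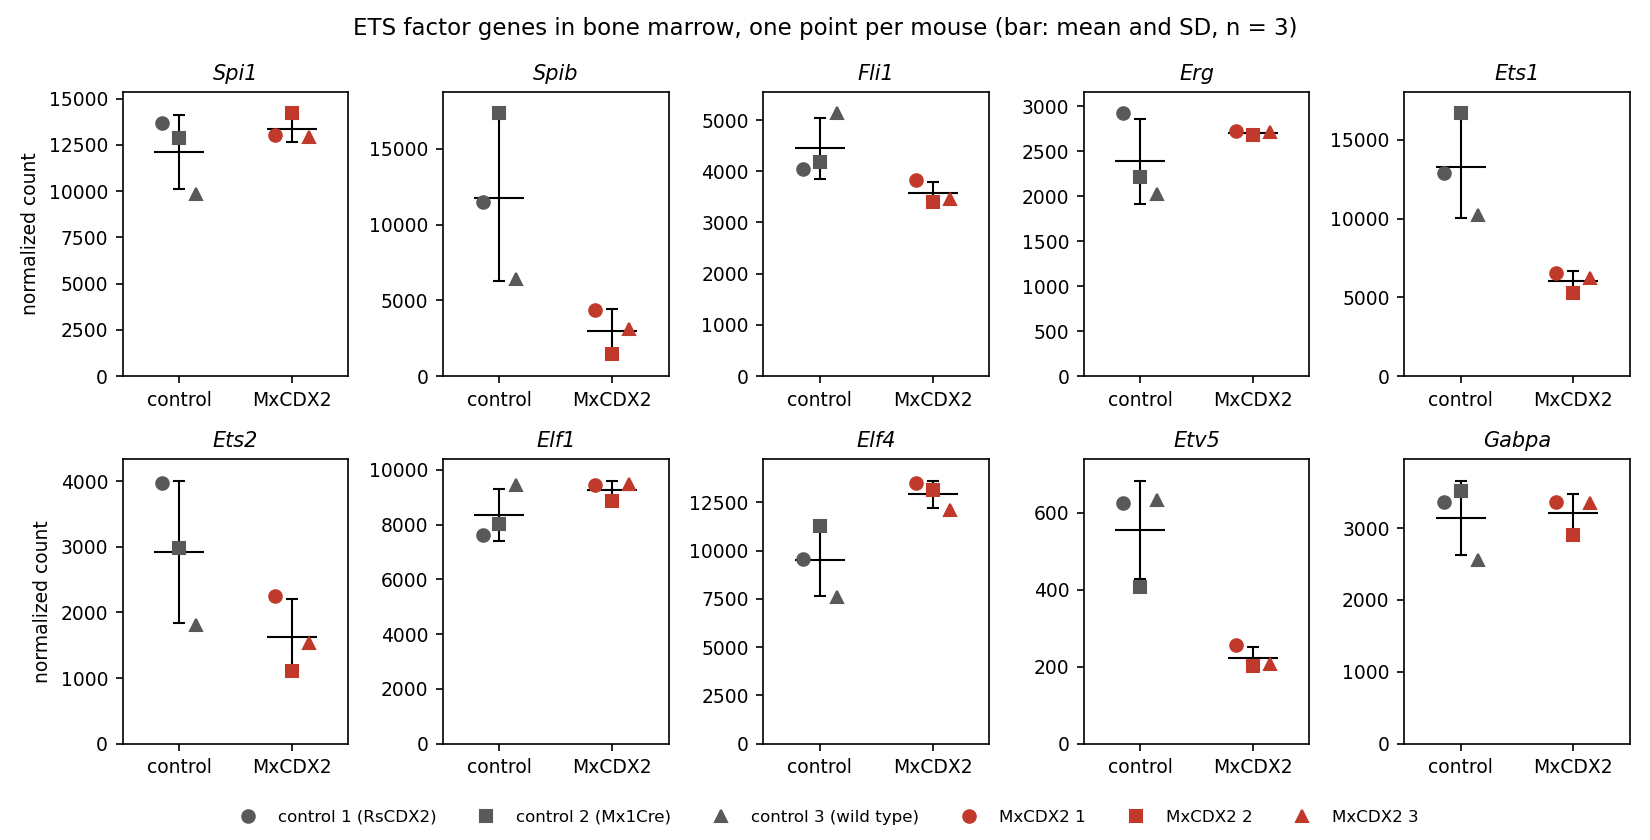
Normalized count (y axis, linear, from 0) of each of the 10 ETS genes, with 1 point per mouse, grey for controls and red for *MxCDX2*, the marker shape giving the mouse number, and the long bar with whiskers giving the mean and SD (n = 3). The red points of *Spib*, *Ets1* and *Etv5* lie below all grey points, those of *Elf4* above them, those of *Gabpa* among them, and those of *Spi1* within or, in 1 mouse, above their range.

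*Spi1* (ENSMUSG00000002111, chromosome 2, 91082390 to 91115756 on the plus strand, GRCm38) encodes PU.1, the factor that directs progenitors to the myeloid fate. It had 13659, 12881 and 9845 normalized counts in controls 1 to 3 and 13012, 14224 and 12928 in the *MxCDX2* mice. The groups overlapped, and the wild-type control was the lowest of the 6. The means were 12128 ± 2015 and 13388 ± 725 (SD, n = 3 each), which is 0.14 on the log2 scale (SE, the standard error, 0.15, 95% interval -0.21 to 0.49, adjusted p = 0.536, edgeR's quasi-likelihood test). The interval leaves room for a small change in either direction, and a log2 fold change of 1 lies outside it.

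Monocytes and neutrophils are rich in PU.1, and their markers did not stay level. Of all 15980 tested genes, 734 were called higher and 9.03% lower, to be read beside the counts of both lists. Of 6 monocyte genes, 4 were called higher and 0 lower, with a median log2 fold change of 2.22, led by *F13a1* (3.06), a transglutaminase of monocytes and platelets, and *Ccr2* (2.75), the receptor that draws monocytes out of the marrow. *Fn1*, the fibronectin gene, had the opposite sign, with -0.82 (adjusted p = 0.226, edgeR), and it was called lower without the wild-type mouse, at -1.15 (adjusted p = 0.0299). The list's summed normalized counts ranged from 40533 to 79785 in control mice and from 254796 to 300671 in *MxCDX2* mice. Of 8 neutrophil genes, 6 were called lower and 0 higher, with a median of -1.57, led by the granule collagenase *Mmp8* (-2.12) and the surface antigen *Ly6g* (-1.88). All 8 were called lower without the wild-type mouse, with DESeq2 and with limma, *Camp* and *Ngp* being added. By flow cytometry of this mouse model, the study reports that immature neutrophils expanded strongly in the marrow. The neutrophil list was not split by maturity, so a fall of neutrophils as a whole cannot be read from it. Summed normalized counts of the 8 neutrophil genes ranged from 1850130 to 2935080 in control mice and from 780754 to 1073720 in *MxCDX2* mice. *Spi1* counts divided by the geometric mean of the 6 monocyte genes were 1.79, 1.42 and 1.77 in controls and 0.707, 0.56 and 0.518 in *MxCDX2* mice. The *Spi1* level thus did not follow the monocyte genes: the ratio was lower in every *MxCDX2* mouse, with a mean log2 difference of -1.49. The part of either cell type in the *Spi1* value was not tested.

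*Spib* (ENSMUSG00000008193, chromosome 7, 44525993 to 44532071, minus strand) encodes Spi-B, the closest relative of PU.1. It had 11479, 17366 and 6437 normalized counts in the controls and 4365, 1456 and 3104 in the *MxCDX2* mice. Every *MxCDX2* mouse lay below every control, although the controls themselves spread widely, from the wild-type mouse at the bottom to the *Mx1Cre* mouse at the top. The means were 11761 ± 5470 and 2975 ± 1459 (SD, n = 3 each), which is -1.98 on the log2 scale (SE 0.49, 95% interval -3.15 to -0.82, adjusted p = 0.0315, edgeR's quasi-likelihood test), or 3.95-fold lower. The sources do not say what the mouse number stands for. With it as a replicate block the log2 fold change was -1.97 and the adjusted p 0.0639, so the call was lost. It held in 2 of 6 fits that each left out 1 mouse, those without control 3 (-2.27, adjusted p = 0.0172) and without *MxCDX2* 1 (-2.36, adjusted p = 0.0378), and the other 4 gave adjusted p-values from 0.0678 to 0.104.

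The sequence before the *Spib* start is shown because it was the member with the largest fall. It is the 250 bases upstream in RefSeq (GRCm38.p6, chr7:44532072-44532321, minus strand), written 5' to 3', where capitals mark an ETS core, GGAA or its complement TTCC.
Spib: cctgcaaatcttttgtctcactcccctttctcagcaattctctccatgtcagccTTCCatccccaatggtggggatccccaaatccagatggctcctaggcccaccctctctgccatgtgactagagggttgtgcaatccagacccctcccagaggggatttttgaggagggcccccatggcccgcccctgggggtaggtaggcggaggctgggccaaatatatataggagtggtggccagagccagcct
This stretch held 1 ETS core and 0 copies of TTTAT, the core that CDX proteins are known to bind, on either strand. Of the 10 genes, 7 had a RefSeq promoter entry, with 12 start sites among them, and 9 of these 12 stretches of 250 bases held GGAA, beside 93.4% of 32851 stretches across the genome. TTTAT was present in 4 of 12, beside 37.3%. These are matches of letters and not measured binding.

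B-cell genes were lower in the same mice, to be read beside the 9.03% of all tested genes called lower. Of 9 B-cell genes, 6 were called lower and 0 higher, with a median log2 fold change of -1.75, led by *Ms4a1*, which encodes CD20 (-2.41). With the replicate block 2 of the 6 remained, *Ms4a1* and *Cd22*, and without the wild-type mouse 7 were called. The summed normalized counts of the list ranged from 22640.0 to 61923 in control mice and from 6351 to 17959 in *MxCDX2* mice, and no gene of the list was at 0 in all mice of a group. *Spib* divided by the geometric mean of the 9 genes was 3.26, 3.32 and 3.34 in controls and 2.83, 2.95 and 2.80 in *MxCDX2* mice. The ratio was nearly the same in the 3 controls, whose *Spib* counts spread from 6437 to 17366. Every *MxCDX2* ratio lay below every control ratio. The groups differed by -0.21 on the log2 scale, where *Spib* itself differed by -1.98. The 3 tested genes most like *Spib* over the 6 mice, by Pearson correlation of log2 normalized counts, were *Fcrla* (0.9997), *Cd79b* (0.9988) and *Blnk* (0.9987), the last pair being listed B-cell genes of receptor signalling. These points share libraries and the 2 groups. Members that were not called also had genes nearly this alike, such as *Cldn15* for *Spi1* (0.9985).

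**Figure D2:**
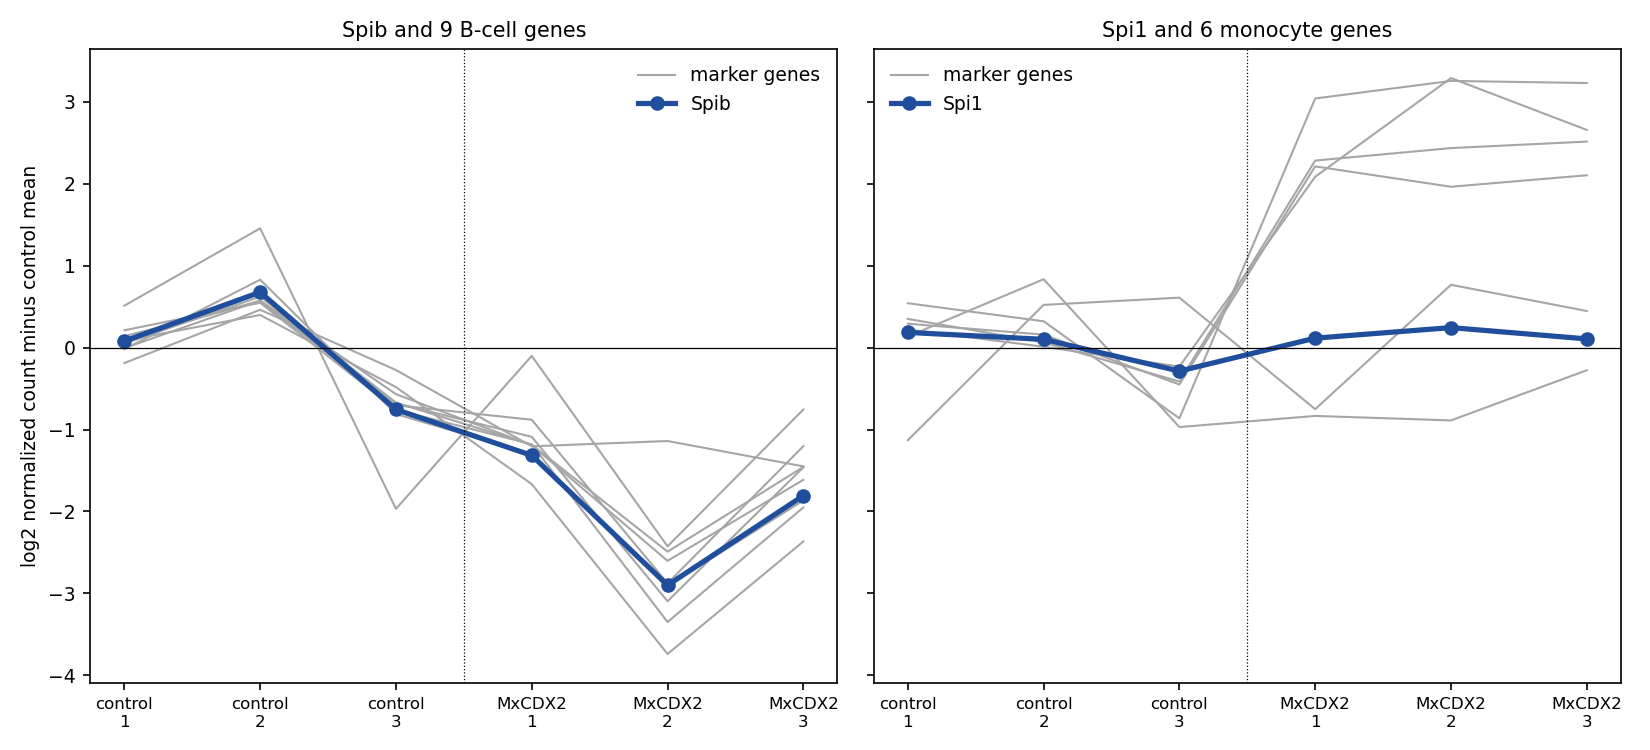
Log2 normalized count minus the control mean (y axis) in each of the 6 mice (x axis), with *Spib* over 9 B-cell genes on the left and *Spi1* over 6 monocyte genes on the right, the ETS gene in blue and each marker gene in grey. Lines join the values of a gene and do not stand for an order of the mice. The *Spib* line runs inside the band of B-cell genes in controls and *MxCDX2* mice, while the *Spi1* line stays near 0 where 4 of the 6 monocyte genes are higher.

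Plasmacytoid dendritic cells are the other cell type known for *Spib*, and their counts stand beside the 9.03% of all tested genes called lower. Of 8 genes of these cells, 4 were called lower and 0 higher, led by *Klk1* (-2.79) and *Cox6a2* (-2.45), and the median was -2.08. With the replicate block 3 were called lower, *Ccr9*, *Klk1* and *Cox6a2*. *Tcf4*, which encodes the E protein E2-2 of these cells, had the opposite sign, with 2786, 3015 and 5803 normalized counts in controls and 5614, 7767 and 7100 in *MxCDX2* mice, which is 0.82 on the log2 scale (adjusted p = 0.0978, edgeR). Without the wild-type mouse *Tcf4* was called higher, at 1.25 (adjusted p = 0.00597), 4 genes were called lower and the median was -1.17. The summed level of the list overlapped between the groups, with 11775 to 32060 normalized counts in control mice and 12656 to 15310 in *MxCDX2* mice. *Spib* divided by the geometric mean of this list was 12.7, 18.6 and 2.54 in controls and 7.99, 2.94 and 5.91 in *MxCDX2* mice, and these ranges overlapped. The part of B cells and dendritic cells in the *Spib* value was not tested.

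*Ets1* (ENSMUSG00000032035, chromosome 9, 32636221 to 32757820, plus strand) encodes Ets-1, a factor of T, B and NK cells. It had 12905, 16712 and 10229 normalized counts in the controls and 6575, 5285 and 6233 in the *MxCDX2* mice. All 3 *MxCDX2* values lay below all control values and close to each other. The means were 13282 ± 3258 and 6031 ± 668 (SD, n = 3 each), 2.20-fold lower in *MxCDX2* mice (SE 0.20 on the log2 scale, 95% interval -1.61 to -0.67, adjusted p = 0.0096, edgeR's quasi-likelihood test). It was the single member that also passed an adjusted p below 0.01. The call held in 5 of 6 fits that left out 1 mouse, and without control 2 the log2 fold change was -0.94 with an adjusted p of 0.0206. *Ets1* and *Etv5* are also named in a lymphoid gene list that the study drew up from these animals, so their direction is not independent evidence for that list.

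Few genes of the other lymphocytes were called, to be read beside the 9.03% of all tested genes called lower. With all mice, all 8 T-cell and all 6 NK-cell genes had a negative log2 fold change. Of 8 T-cell genes, 1 was called lower (3 with DESeq2), *Cd4* (-2.64), the co-receptor of helper T cells, and 0 higher, with a median of -0.86 (-0.33 without the wild-type mouse). Of 6 NK-cell genes, 1 was called lower (2 with DESeq2), *Klrb1c* (-1.60), which encodes NK1.1, and 0 higher, with a median of -1.04 (-0.59 without the wild-type mouse). With the replicate block *Klrb1c* did not pass and *Nkg7* did. The summed normalized counts of the T-cell list were 4489 to 14178 in controls and 1996 to 3911 in *MxCDX2* mice, and those of the NK-cell list 4598 to 7667 and 2087 to 4418. *Ets1* divided by the geometric mean of the 9 B-cell genes was 3.67, 3.20 and 5.30 in controls and 4.26, 10.7 and 5.63 in *MxCDX2* mice. Unlike the *Spib* ratio, this one varied by several times among mice, and the groups overlapped. The genes most like *Ets1* were *Cbx6* (Pearson correlation 0.9988), *Mturn* (0.9972) and *Tcf3* (0.9955), the last encoding the E2A factors of early B cells. Members that were not called had genes about as alike, such as *Cldn15* for *Spi1* (0.9985) and *Ifngr2* for *Elf4* (0.9982). The part of lymphocytes in the *Ets1* value was not tested.

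*Ets2* (ENSMUSG00000022895, chromosome 16, 95702075 to 95721051, plus strand) encodes Ets-2, a relative of Ets-1 that acts downstream of Ras signalling. Its normalized counts were 3974, 2984 and 1802 in controls and 2245, 1103 and 1538 in *MxCDX2* mice. The wild-type control fell between *MxCDX2* mice 1 and 3, so the groups overlapped. On the log2 scale the fold change was -0.84 (SE 0.35, 95% interval -1.68 to -0.0032, adjusted p = 0.137, edgeR's quasi-likelihood test). Without the wild-type mouse it was -1.08 with an adjusted p of 0.0451, which passes, and the other 5 fits with 1 mouse left out gave adjusted p-values of 0.0898 and above.

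*Etv5* (ENSMUSG00000013089, chromosome 16, 22381309 to 22439719, minus strand) encodes ETV5, a factor of the PEA3 group that responds to growth factor signalling through ERK. It had 626, 407 and 634 normalized counts in the controls and 256, 201 and 208 in the *MxCDX2* mice. The *MxCDX2* mice lay below all controls, the nearest control being the *Mx1Cre* mouse. The means were 556 ± 129 and 222 ± 30.2 (SD, n = 3 each), 2.51-fold lower (SE 0.24 on the log2 scale, 95% interval -1.90 to -0.75, adjusted p = 0.0119, edgeR's quasi-likelihood test). The call held with the replicate block and in 5 of 6 fits that left out 1 mouse, and without *MxCDX2* 3 the adjusted p was 0.0593. The genes most like it were *Phyhip* (Pearson correlation 0.9975), *Blm* (0.9966) and *Nek6* (0.9939).

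The RefSeq table gives *Etv5* a pair of start sites, and the sequences before both are shown to set them beside that of *Spib*. Capitals mark ETS cores as above and, in addition, the CDX core TTTAT or its complement ATAAA. The first is the part of the upstream window outside annotated exons (chr16:22439720-22439820) and the second the whole 250 bases (chr16:22438369-22438618), both GRCm38.p6 and minus strand.
Etv5, first start: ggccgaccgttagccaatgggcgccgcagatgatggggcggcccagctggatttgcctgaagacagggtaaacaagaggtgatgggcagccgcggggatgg
Etv5, second start: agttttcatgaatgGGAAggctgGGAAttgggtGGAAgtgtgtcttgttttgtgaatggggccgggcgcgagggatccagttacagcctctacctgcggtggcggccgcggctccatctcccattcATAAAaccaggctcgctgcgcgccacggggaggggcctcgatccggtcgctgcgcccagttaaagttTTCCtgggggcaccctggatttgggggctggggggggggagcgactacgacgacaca
The first stretch held 0 ETS cores and 0 CDX cores. The second held 4 ETS cores, 3 of them close together at 236, 227 and 217 bases before the start, and 1 CDX core at 124 bases.

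Genes that ERK signalling induces along with the PEA3 factors did not pass in edgeR. Of 6 such genes, the phosphatase gene *Dusp6* and the signalling inhibitors *Spry1*, *Spry2*, *Spry4*, *Spred1* and *Spred2*, 0 were called in either direction, and the median log2 fold change was -0.67, or -0.26 without the wild-type mouse. *Spry1* had 282, 204 and 1465 normalized counts in controls and 188, 175 and 221 in *MxCDX2* mice, and its log2 fold change went from -1.74 to -0.30 without the wild-type mouse. DESeq2 called 1 lower, *Spry1*, limma called 0, and at an unadjusted p under 0.05 (edgeR) 1 was lower and 2 higher. *Spred2* had the lowest adjusted p, 0.0564 at a log2 fold change of -0.82 (edgeR), and *Dusp6* had -0.52. With the replicate block *Spred2* and *Spred1* passed the adjusted p, at -0.81 and 0.57. *Etv5* divided by the geometric mean of the B-cell genes ranged from 0.0779 to 0.328 in controls and from 0.166 to 0.407 in *MxCDX2* mice, and did not separate the groups.

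*Fli1* and *Erg* encode a closely related pair of factors of stem cells, megakaryocytes and endothelium. *Fli1* (ENSMUSG00000016087, chromosome 9, 32422204 to 32542861, minus strand) had 4037, 4178 and 5136 normalized counts in controls and 3828, 3403 and 3467 in *MxCDX2* mice. The groups did not overlap, but the gap between control 1 and *MxCDX2* 1 was smaller than the SD of either group. On the log2 scale the fold change was -0.32 (SE 0.12, 95% interval -0.61 to -0.03, adjusted p = 0.113, edgeR's quasi-likelihood test), and -0.19 without the wild-type mouse, the highest of the 6. *Erg* (ENSMUSG00000040732, chromosome 16, 95359169 to 95586593, minus strand) had 2926, 2213 and 2029 in controls and 2726, 2679 and 2720 in *MxCDX2* mice. The 3 *MxCDX2* mice were close to each other and inside the control range. On the log2 scale the fold change was 0.18 (SE 0.15, 95% interval -0.18 to 0.54, adjusted p = 0.438).

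Both genes stand beside an ETS gene that was lower or had a negative fold change. *Fli1* and *Ets1* lie 93.36 kb apart on chromosome 9, on opposite strands and with 0 protein-coding genes between them, and so do *Erg* and *Ets2* on chromosome 16, 115.5 kb apart. The log2 fold changes within the first pair were -0.32 and -1.14, and within the second 0.18 and -0.84. The difference within a pair was not tested.

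Markers of the cell types known for *Fli1* and *Erg* were as follows, beside 9.03% of all tested genes called lower. Of 10 megakaryocyte genes, known targets of Fli-1, 3 were called lower, among them *Gp9* (-3.73) and *Gp1ba* (-3.58), and 0 higher, with a median of -3.20. Their sum was 28084 to 317609 in controls and 12639 to 17384 in *MxCDX2* mice. With the replicate block 1 was called, *Gp9*, and with limma 0. Without the wild-type mouse 6 were called lower and the median was -1.32. Of 7 stem and progenitor genes, 1 was called lower, *Meis1* (-2.32), and *Kit* (-0.69) passed by adjusted p alone, with a median of -1.10 (-0.42 without the wild-type mouse). With the replicate block or limma 0 of the 7 passed the thresholds, at an unadjusted p under 0.05 (edgeR) 4 were lower and 1 higher, and without the wild-type mouse *Meis1* was lower and *Cd34* higher. Their summed normalized counts were 7203 to 15003 in controls and 7750 to 8629 in *MxCDX2* mice. Of 6 endothelial genes, 1 was called lower, *Cdh5* (-1.73), which encodes VE-cadherin, with a median of -1.31 (-0.51 without the wild-type mouse), and 0 were called without the wild-type mouse or with limma. Their sum was 4962 to 12023 in controls and 6141 to 7020 in *MxCDX2* mice. The part of these cell types in the *Fli1* and *Erg* values was not tested.

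*Elf4* (ENSMUSG00000031103, chromosome X, 48411046 to 48463132, minus strand) encodes ELF4, a factor of stem cell cycling and NK cells, and *Elf1* (ENSMUSG00000036461, chromosome 14, 79481194 to 79582494, plus strand) encodes its relative ELF1, which acts widely in blood cells. *Elf4* had 9593, 11281 and 7622 normalized counts in controls and 13503, 13133 and 12116 in *MxCDX2* mice. Every *MxCDX2* mouse lay above every control. The means were 9499 ± 1832 and 12917 ± 718 (SD, n = 3 each), which is 0.44 on the log2 scale (SE 0.16, 95% interval 0.07 to 0.82, adjusted p = 0.0915, edgeR's quasi-likelihood test), and the gene did not pass. Scaling by total counts alone moved the median of all genes to 0.12 and gave *Elf4* 0.56 with an adjusted p of 0.0307. Under that scaling 2343 genes were higher and 1657 lower by adjusted p alone, against 1583 and 1888 with TMM.

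*Elf1* had 7624, 8018 and 9436 in controls and 9452, 8877 and 9476 in *MxCDX2* mice. The wild-type control was level with the *MxCDX2* mice, and the fold change was 0.15 on the log2 scale (SE 0.11, 95% interval -0.12 to 0.42, adjusted p = 0.397, edgeR's quasi-likelihood test). Its exons share 327 bases with *Wbp4* on the opposite strand. The libraries were stranded, but the strand setting of the counting is not given in the sources used here, so it is not known how reads on the shared bases were counted.

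The 250 bases before the first *Elf4* start are shown as those of the member with the largest rise in the group means (GRCm38.p6, chrX:48463133-48463382, minus strand, capitals for ETS cores).
Elf4: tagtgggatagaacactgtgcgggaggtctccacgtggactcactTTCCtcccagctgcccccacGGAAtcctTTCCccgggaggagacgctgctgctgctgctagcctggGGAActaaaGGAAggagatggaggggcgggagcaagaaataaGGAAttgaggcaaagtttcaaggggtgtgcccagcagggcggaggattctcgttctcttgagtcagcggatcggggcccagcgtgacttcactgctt
They held 6 ETS cores and 0 CDX cores, where the median of all stretches of this length was 3 ETS cores. The stretch before the second *Elf4* start (chrX:48454320-48454569), not shown, held 2 ETS cores and 0 CDX cores. The longer ETS motif GAGGAA, the PU.1 box, stood in 3 of the 12 member stretches, beside 23.3% of all.

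*Gabpa* (ENSMUSG00000008976, chromosome 16, 84834925 to 84863779, plus strand) encodes the DNA-binding subunit of GABP, which pairs with a beta subunit and acts on housekeeping and mitochondrial genes. It had 3357, 3522 and 2555 normalized counts in controls and 3365, 2899 and 3350 in *MxCDX2* mice, with overlapping groups. The groups differed by 0.03 on the log2 scale (SE 0.15, 95% interval -0.32 to 0.38, adjusted p = 0.916, edgeR's quasi-likelihood test). The genes of its beta subunits, *Gabpb1* and *Gabpb2*, had log2 fold changes of -0.17 (adjusted p = 0.373) and 0.05 (adjusted p = 0.863). Of 6 known GABP targets, the mitochondrial transcription genes *Tfam*, *Tfb1m*, *Tfb2m* and *Polrmt* and the respiratory chain genes *Cox4i1* and *Cox5b*, 0 were called in either direction with edgeR, DESeq2 or limma, 0 had an unadjusted p under 0.05, and the median was 0.20. The *Gabpa* stretch was the 1 of 12 that held CCGGAA, the longer GABP-type motif, which 3952 of all 32851 stretches held. *Gabpa* exons share 397 bases with *Atp5j* on the opposite strand.

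**Figure D3:**
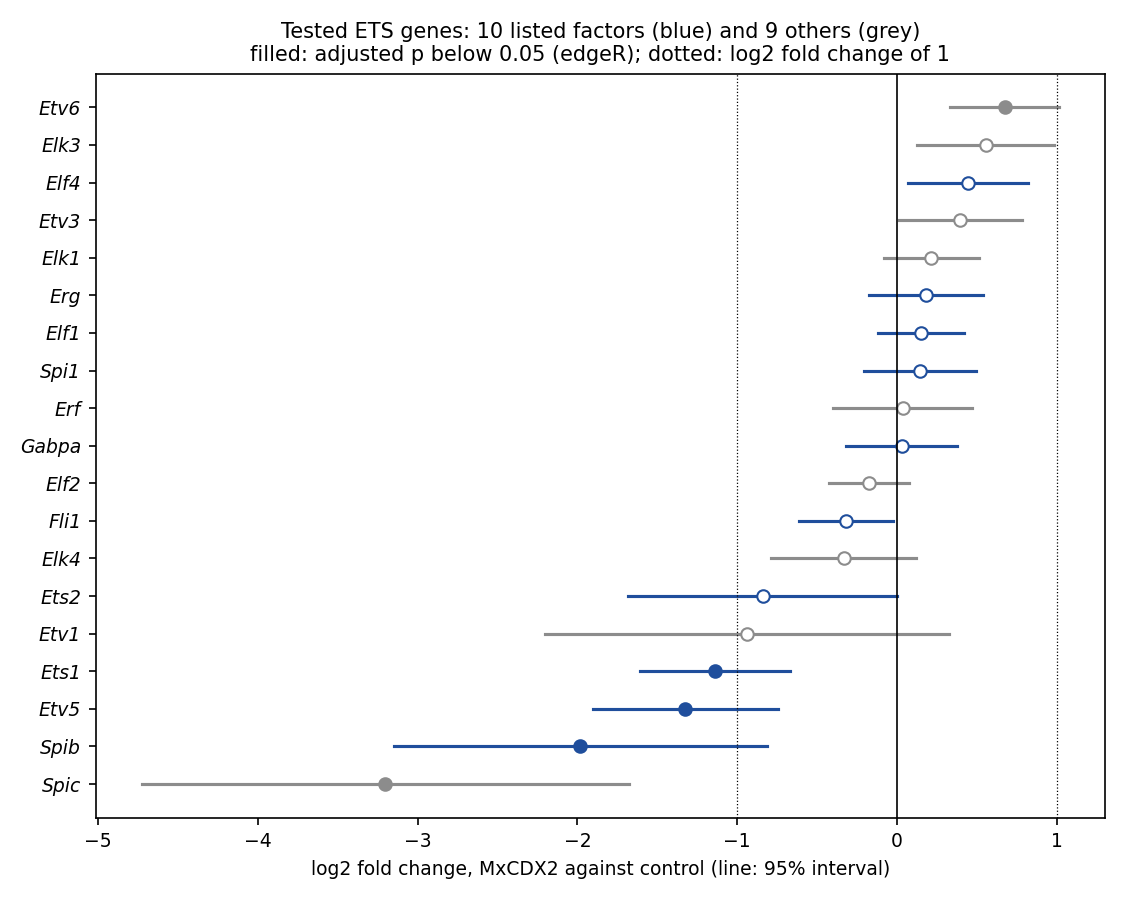
Log2 fold change (x axis, *MxCDX2* against control) with its 95% interval for the 19 tested ETS genes, the 10 listed ones in blue and 9 others in grey. Filled points have an adjusted p below 0.05 and dotted lines mark a log2 fold change of 1 in size. *Spic*, *Spib*, *Etv5* and *Ets1* are filled and left of -1, and *Etv6* is filled at 0.67.

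Between genes, levels are compared as normalized counts per kilobase of exon. In control mice *Spi1* (4500 ± 748, SD, n = 3) and *Spib* (4101 ± 1907) were the most abundant, and their ranges overlapped. *Ets1* (1567 ± 384), *Elf4* (1545 ± 298), *Fli1* (1277 ± 172) and *Elf1* (1241 ± 141) followed as a run of overlapping neighbours, all below *Spib*. Then came *Erg* (689 ± 137), *Gabpa* (553 ± 90.9) and *Ets2* (505 ± 188), again overlapping, and last *Etv5* (135 ± 31.4).

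In *MxCDX2* mice *Spi1* (4968 ± 269, SD, n = 3) was first and stood clear of *Elf4* (2101 ± 117), which was now clear of *Elf1* (1376 ± 50.4). *Spib* (1037 ± 509) lay level with *Elf1* and with *Fli1* (1023 ± 65.7). *Ets1* (712 ± 78.8) overlapped with *Erg* (781 ± 7.30) and stood above *Gabpa* (564 ± 46.6), *Ets2* (282 ± 99.7) and *Etv5* (54.0 ± 7.36), which did not overlap each other. *Spib* thus moved from rank 2 to rank 4 and *Ets1* from 3 to 7, while *Elf4* moved from 4 to 2.

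Summed per kilobase over all 26 ETS genes of mouse that were looked up, transcript levels were 19888, 22102 and 16508 in controls and 17553, 15853 and 16607 in *MxCDX2* mice, and these ranges overlapped. The make-up of this sum differed more. *Spib* made up 20.12, 27.40 and 13.60% in controls and 8.67, 3.20 and 6.52% in *MxCDX2* mice. *Spi1* made up 25.48, 21.63 and 22.13% and then 27.51, 33.29 and 28.89%. *Elf4* went from between 7.51 and 8.30% to between 11.87 and 13.47%, and *Ets1* from between 7.31 and 8.92% to between 3.93 and 4.43%. In each of these 4 genes the shares of the groups did not overlap. The same held for *Etv6*, *Erg*, *Gabpa*, *Etv3*, *Elk1*, *Etv5* and *Spic*, so it was not particular to these 4. In *Erg* and *Gabpa* the normalized counts themselves overlapped between the groups. Shares of one sum are not independent of each other.

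**Figure D4:**
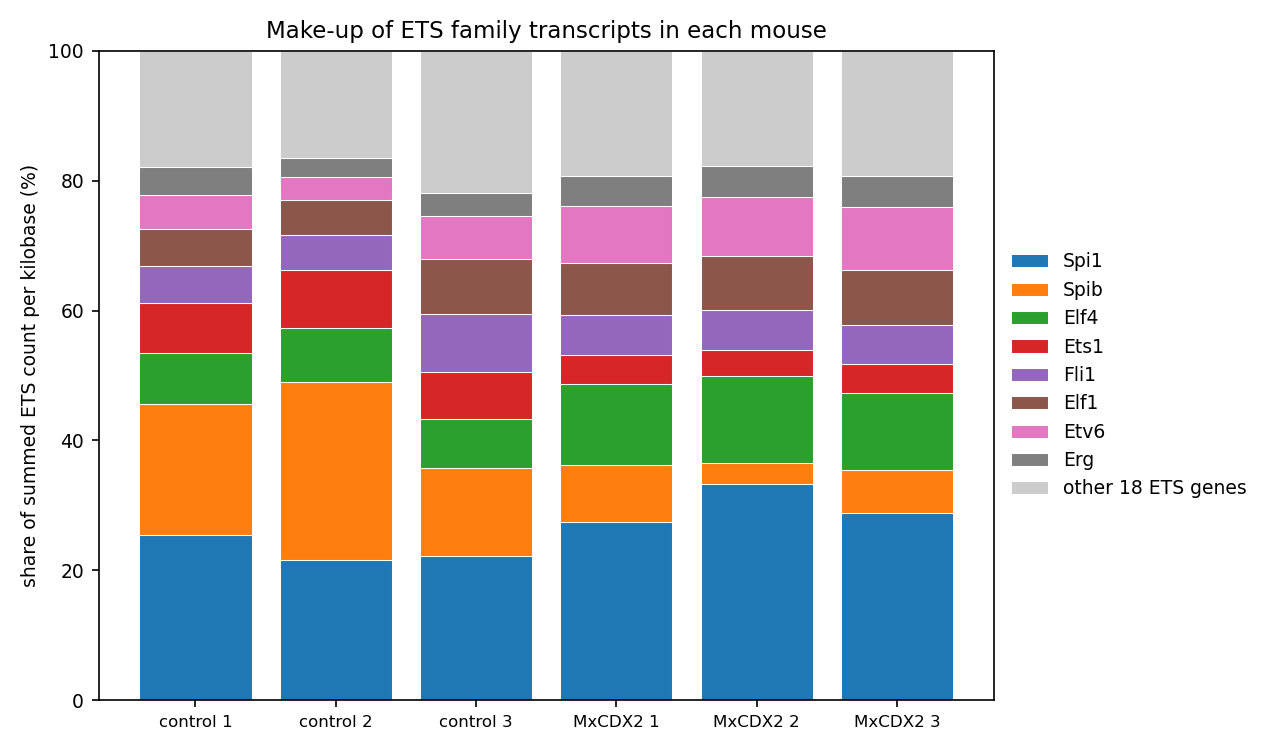
Share (y axis, in %) of each ETS gene in the summed normalized count per kilobase of 26 ETS genes, as 1 stacked bar per mouse. The *Spib* segment is 13.60 to 27.40% in controls and 3.20 to 8.67% in *MxCDX2* mice.

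Of the 16 ETS genes outside the list, 9 had enough reads to be tested, and *Elf3*, *Elf5*, *Ehf*, *Etv2*, *Etv4*, *Fev* and *Spdef* did not. *Spic*, the remaining relative of PU.1 and a factor of iron-recycling macrophages, was called lower, beside 9.03% of all tested genes, and 0 were called higher. *Spic* also stands in the study's own list of transcription regulators from these mice. It had 694, 784 and 2446 normalized counts in controls and 110, 84.3 and 232 in *MxCDX2* mice, with the wild-type mouse far above the rest. The difference was -3.20 on the log2 scale (SE 0.64, adjusted p = 0.0159, edgeR's quasi-likelihood test), or 9.19-fold lower, and without the wild-type mouse it was -2.36 (adjusted p = 0.0147). Without *MxCDX2* 1 or 2 the adjusted p was 0.0536 or 0.0583. All 8 erythroid genes that were found were called lower, beside 9.03% of all tested genes. Their median was -3.45, led by the globin genes *Hba-a1* (-4.24) and *Hbb-bt* (-4.15). The summed normalized counts of the erythroid list were 736281 to 797857 in controls and 19201 to 87941 in *MxCDX2* mice. *Spic* divided by their geometric mean was 0.0197, 0.0219 and 0.0788 in controls and 0.0213, 0.0837 and 0.112 in *MxCDX2* mice, and the groups overlapped. No marker list of iron-recycling macrophages was looked at, and the part of any cell type in the *Spic* value was not tested.

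*Etv6*, a repressor needed for stem cells to settle in the marrow and the most abundant of these other genes per kilobase, passed by adjusted p alone, 1 gene higher beside 1 lower by that rule. It had 6171, 4703 and 6456 normalized counts in controls and 9238, 8609 and 9771 in *MxCDX2* mice, and every *MxCDX2* mouse was above every control. This was a rise of 0.67 on the log2 scale (SE 0.14, adjusted p = 0.019, edgeR's quasi-likelihood test), or 1.59-fold. Without *MxCDX2* 1 or 3 the adjusted p was 0.0549 or 0.0800. *Elk3* had 0.55 with an adjusted p of 0.0714, and 0.0238 with the replicate block. The remaining tested genes, *Elf2*, *Elk1*, *Elk4*, *Erf*, *Etv1* and *Etv3*, did not pass.

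The genes of ETS partners moved in different directions. Of 11 partner genes, 3 were called higher and 1 lower, beside 13.6% of all tested genes called in either direction. *Gata1*, the erythroid factor that PU.1 opposes, had 6061, 5676 and 8760 normalized counts in controls and 1421, 382 and 750.4 in *MxCDX2* mice, and the ratio of *Spi1* to *Gata1* was 2.25, 2.27 and 1.12 in controls and 9.16, 37.2 and 17.2 in *MxCDX2* mice. All *MxCDX2* ratios were above all control ratios. On the log2 scale the means were 0.84 ± 0.58 and 4.17 ± 1.01 (SD, n = 3 each), a difference of 3.33 (2.81 to 3.82 with 1 mouse left out). The two-sided exact permutation test gave p = 0.10, the smallest value that 3 mice against 3 allow. Since *Spi1* differed by 0.14 and *Gata1* by -3.01 on the log2 scale, nearly all of the difference in the ratio came from its denominator.

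For the paralogs, the ratio of *Spib* to *Spi1* was 0.84, 1.35 and 0.654 in controls and 0.336, 0.102 and 0.24 in *MxCDX2* mice. The groups were apart here too, with *Spib* above *Spi1* in the *Mx1Cre* mouse alone. Log2 means were -0.14 ± 0.53 and -2.31 ± 0.88 (SD, n = 3 each), a difference of -2.16 (-2.53 to -1.67 with 1 mouse left out), and the exact permutation test again gave its smallest p, 0.10. Adjusted over these 2 ratios the values stay at 0.10.

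**Figure D5:**
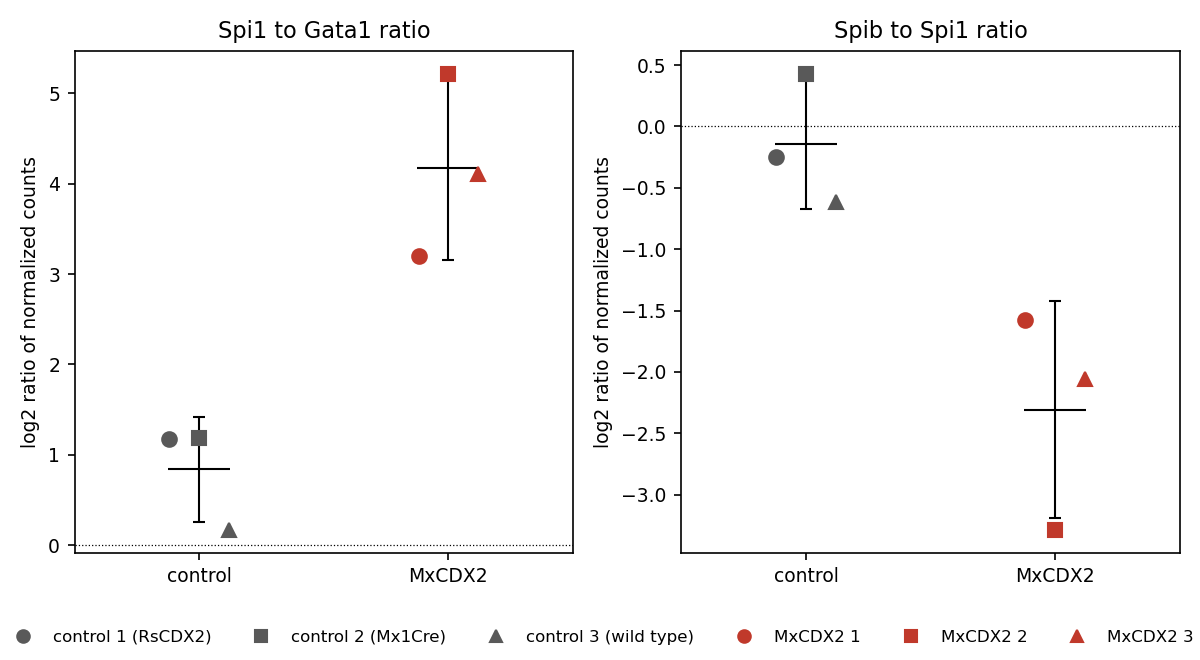
Log2 ratio of normalized counts (y axis) of *Spi1* to *Gata1* on the left and of *Spib* to *Spi1* on the right, with 1 point per mouse and bars for the mean and SD (n = 3). The *MxCDX2* points lie above all control points on the left and below them on the right.

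*Runx1*, which binds beside PU.1 and Ets-1, was higher by adjusted p alone. It had 3938, 3558 and 3541 normalized counts in controls and 6416, 6432 and 6236 in *MxCDX2* mice, a tight separation, with a rise of 0.79 on the log2 scale (SE 0.09, adjusted p = 0.00277, edgeR's quasi-likelihood test). Its beta subunit gene *Cbfb* had 0.38 (adjusted p = 0.236). The PU.1 partners *Cebpa*, *Jun* and *Irf8* were the genes called higher, at 1.72, 1.22 and 1.17 with adjusted p-values of 0.00191, 0.00651 and 0.0354. From these same mice the study also names these genes as upregulated, and *Gata1* and *Gata2* as downregulated. These calls are therefore not independent of the study. *Irf8* passed in 2 of 6 fits that left out 1 mouse, those without control 3 and without *MxCDX2* 1, and the other 4 gave adjusted p-values from 0.0717 to 0.102. *Irf4* had -0.19 (adjusted p = 0.83), *Gata2* -1.21 (adjusted p = 0.0766) and *Gfi1* 0.69 (adjusted p = 0.319), and none of these passed. DESeq2 called *Gata2* lower, at -1.20 (adjusted p = 0.0181). The wild-type mouse stood apart in both genes, and without it *Gata2* had -0.56 and *Gfi1* 0.32.

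Known targets of PU.1 were looked at as a list of 20 myeloid genes. Of these, 3 were called higher and 0 lower, with a median log2 fold change of 0.22. Of all 15980 tested genes, 13.6% were called in either direction and 734 were called higher. By adjusted p alone 5 of the 20 were higher, beside 21.7% of all genes in either direction and 1583 genes higher. *Csf1r*, the receptor for the macrophage growth factor, had 6624, 10079 and 9319 normalized counts in controls and 31519, 40190 and 38295 in *MxCDX2* mice, a log2 difference of 2.08 (adjusted p = 0.00196, edgeR). *Mpeg1*, a pore-forming protein of macrophages, had 1.42 (adjusted p = 0.00366). *Ctss*, a lysosomal protease, had 1.15 (adjusted p = 0.0069). The genes that passed by adjusted p alone were *Csf2rb* (0.93) and *Cd68* (0.82). The other 15, among them the integrin genes *Itgam* (-0.48) and *Itgb2* (-0.33) and the oxidase gene *Cybb* (0.24), did not pass. Without the wild-type mouse 5 passed the thresholds, with *Cd68* and *Adgre1* added. With the replicate block *Adgre1* passed by adjusted p alone, at 0.82 (adjusted p = 0.0472, edgeR).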

How the data were processed

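Total RNA of mouse bone marrow was sequenced as stranded mRNA libraries. The authors aligned reads with STAR 2.5 to GRCm38 and counted them with HTSeq 0.6.1, and they deposited raw counts per gene for each mouse, without normalization. The strand setting of the counting is not given in the sources used here. Rows that name no gene were left out (ambiguous reads 2.99 to 3.16%, reads on no feature 9.22 to 14.06%). No pair of mice had counts as close as a duplicated library.

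Symbols, positions and exon lengths came from GENCODE M21, which holds 37607 of the identifiers, and promoter sequences from RefSeq (GRCm38.p6). Counts were tested in R 4.3.3 with edgeR 4.0.16 (TMM, filterByExpr, glmQLFit, glmQLFTest, group as the single term). DESeq2 1.42.0 and limma 3.58.1 (voom) were alternatives. The other alternatives were other scalings and filters, stricter thresholds, the replicate block and each mouse left out. Level order and sums used normalized counts per kilobase of exon. Ratios were tested with exact permutation tests in scipy 1.17.1 (Python 3.11.15). On data simulated for this comparison edgeR found 200 of 200 changed genes with 10 false calls over 15804 genes. There every gene had the same spread, and equal numbers of genes were raised and lowered by the same fold. The mice differ from this in both respects, so the result says little about them. Whether edgeR would find differences of the size and spread seen in the 10 listed genes was not tested.

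Labels number the mice 1 to 3 in each group. Deviations from the group means of same-numbered mice correlated at 0.163, 0.287 and 0.179 across genes, and those of differently numbered mice at between -0.333 and 0.114. The numbers of the groups come from different label fields, and no source used here says what a shared number stands for. Among controls the number also marks the genotype. Deviations within a group are not independent of each other, so these correlations do not show a pairing. The block is an alternative only. Where it changes a call, the blocked value or the blocked count of the list is printed.

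The 10 genes and all gene lists were chosen with earlier results of these data known. Every member is named. Of the other ETS genes those past either rule and the most abundant are named, of the partners all, and of each target or marker list up to 2 rises and 2 falls past the thresholds, except that some single genes of these lists are not reported here. For each called member the 3 most alike genes are given, among those averaging 100 normalized counts or more. Where a gene outside this rule is named, it was chosen after its values were seen.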

Additional observations from a re-analysis of the deposited data

How the results depend on the processing

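*Spib*, *Ets1* and *Etv5* were the 3 members past the thresholds with DESeq2, with limma, with DESeq2 size factors, with total counts only, with the 10 most abundant genes left out of the scaling and under both other filters on low counts. Total counts only added *Elf4* by adjusted p alone. Testing each gene against a fold change of 1 (log2) called 0 of the 10 members and 611 genes of all, where the separate thresholds called 2177. An adjusted p below 0.01 left 1 member, *Ets1*, under both rules, and 1043 genes past the thresholds or 1282 by adjusted p alone, where 3471 passed at 0.05. With 1 mouse left out, 1 to 4 members passed under either rule, and 1205 to 2406 genes passed the thresholds and 1482 to 4361 the adjusted p alone. The lowest counts of genes came without *MxCDX2* 3, where *Ets1* was the 1 member left, and *Etv5* was the 1 member past the thresholds without control 2. With the replicate block 2 members passed, since *Spib* was lost (adjusted p = 0.0639, edgeR's quasi-likelihood test), and 2205 genes of all passed the thresholds; the block changed no other call of a member. Leaving out a mouse moved *Gabpa*, which was never called, between -0.0853 and 0.117 and turned its sign, to -0.0853 without control 3, -0.0072 without *MxCDX2* 1 and -0.001 without *MxCDX2* 3. With 1 mouse left out, the marker genes *Cd4*, *Ms4a1*, *Cox6a2*, *Gp9*, *Gp1ba*, *Meis1*, *Klrb1c* and *Cdh5* passed in 5, 4, 4, 3, 3, 3, 2 and 1 of 6 fits. The counts of the gene lists under the block, without the wild-type mouse and with DESeq2 or limma were added after the data were seen. With 3 mice in each group, the spread between animals limits these comparisons more than the number of reads, and the cause of the changes between settings was not tested.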

Other observations

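The 4 promyelocyte genes, which encode enzymes of primary granules, differed among themselves. Of all 15980 tested genes, 734 were called higher. *Ctsg*, the cathepsin G gene, was called higher, with a log2 fold change of 2.32 and an adjusted p of 0.0237 (edgeR's quasi-likelihood test), and 0 were called lower. It had 17332, 11194 and 3612 normalized counts in controls and 50936, 49158 and 60062 in *MxCDX2* mice, so every *MxCDX2* mouse was above every control. The call held in 2 of 6 fits that left out 1 mouse, those without control 1 (2.86, adjusted p = 0.0226) and without the wild-type mouse (1.92, adjusted p = 0.00433), and the other 4 gave adjusted p-values from 0.0528 to 0.0768. *Mpo*, the myeloperoxidase gene, had 0.31 (adjusted p = 0.724) and *Elane*, the neutrophil elastase gene, -0.31 (adjusted p = 0.77), and in both the wild-type mouse was the lowest of the 6. Without that mouse *Mpo* had -0.11 (adjusted p = 0.634) and *Elane* -0.77 (adjusted p = 0.0267, past the adjusted p alone). *Mpo* and *Elane* were chosen for mention after their values were seen.

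Among ETS genes with too few reads to test, *Ehf*, an epithelial factor, had 2.56, 19.9 and 59.3 normalized counts in controls and 2.12, 0 and 1.74 in *MxCDX2* mice. *Etv2*, a factor of early blood vessels, had 6.86 in *MxCDX2* 2 and at most 1.74 in the other 5 mice. These values rest on few reads and were chosen after they were seen.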
